A study of Mus musculus with 74 samples.

Results

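The 500 strongest BMAL1 binding sites of inguinal white adipose tissue (WAT) were chosen by the highest peak score from a list of 10368 peaks, ties being kept in file order. Their scores ran between 14.6 and 201.3 with a median of 18.7, and those of the remaining 9868 peaks ran between 2.91 and 14.6 with a median of 5.99. The score is the authors' own value on peaks pooled over both ChIP libraries, so binding strength at these sites is described and not tested. The threshold fell inside a tie: 16 peaks scored 14.6, of which 6 were inside and 10 outside. Just inside stood the peaks near Stk32c, Cul5, Senp8, Rnf14 and A330076C08Rik, and just outside those near Klf13, Cpeb2, Nr3c1, Acvr1b and E030018B13Rik, each at 14.6.

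The sites were then followed in libraries that played no part in choosing them: ribosome-bound RNA and chromatin accessibility (ATAC-seq, which counts transposase insertions in open chromatin) of adipocytes from brown adipose tissue (BAT) and inguinal WAT. BAT and WAT adipocytes came from Adiponectin-Cre:NuTRAP mice, in which Cre driven by the adiponectin promoter switches on tags on the nuclei and ribosomes of adipocytes. Both depots were sampled at ZT1, ZT5, ZT9, ZT13, ZT17 and ZT21, where zeitgeber time (ZT) counts hours from lights on. There were 3 libraries per depot, time and assay, except for RNA of BAT at ZT17 with 2. The ChIP used an anti-BMAL1 antibody on fixed whole inguinal WAT of C57BL6J mice at ZT4 only, with 2 libraries, so it can hold cells other than adipocytes. Its label reads white adipocytes, but the protocol describes minced tissue and no sort. Binding in BAT was not measured, and a site is followed in BAT by its position alone. The labels give no sex, age, diet or feeding schedule and do not say that libraries are separate animals, so every p-value measures the spread between libraries.

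BMAL1 pairs with CLOCK and binds the E-box motif CACGTG and close variants in DNA. The pair switches on its own repressors, the PER and CRY proteins and the nuclear receptors REV-ERB alpha and beta, and these shut it off again over the course of a day. In mouse liver, binding by the pair is strongest around the middle of the light phase, and the PAR bZIP factors DBP, TEF and HLF carry the rhythm on to further genes. In adipocytes, clock genes are known to touch lipid storage, lipolysis and heat production.

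The stretches below are from RefSeq promoters on GRCm38.p6 (mm10), read 5′ to 3′ on the gene's strand. The capitals mark the E-box CACGTG, its variant CACGTT or its variant CACGCG on either strand. Each stretch was placed to hold such a motif upstream of the start. The CACGTG nearest to the peak centre was taken, failing that CACGTT, and failing that CACGCG. That a stretch holds a motif is therefore not a result. The first set is at clock genes: Ciart at chr3:95882302-95882381 (minus), Nr1d1 at chr11:98775378-98775457 (minus), Cry1 at chr10:85185072-85185151 (minus), Per3 at chr4:151044666-151044745 (minus), Cry2 at chr2:92434193-92434272 (minus), Per1 at chr11:69098746-69098825 (plus), Hlf at chr11:90390988-90391067 (minus) and Nampt at chr12:32820151-32820230 (plus). All of them lie upstream of the start site.
Ciart: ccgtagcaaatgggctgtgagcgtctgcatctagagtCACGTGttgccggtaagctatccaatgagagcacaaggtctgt
Nr1d1: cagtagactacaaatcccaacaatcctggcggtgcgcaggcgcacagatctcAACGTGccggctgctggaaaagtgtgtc
Cry1: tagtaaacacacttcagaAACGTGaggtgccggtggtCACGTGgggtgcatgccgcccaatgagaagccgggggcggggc
Per3: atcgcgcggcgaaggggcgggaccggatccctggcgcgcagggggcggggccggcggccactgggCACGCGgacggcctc
Cry2: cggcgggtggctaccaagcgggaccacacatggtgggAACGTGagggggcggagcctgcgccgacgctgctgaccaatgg
Per1: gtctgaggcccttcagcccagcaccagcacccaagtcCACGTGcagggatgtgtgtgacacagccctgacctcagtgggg
Hlf: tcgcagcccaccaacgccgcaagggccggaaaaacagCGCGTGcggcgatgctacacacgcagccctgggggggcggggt
Nampt: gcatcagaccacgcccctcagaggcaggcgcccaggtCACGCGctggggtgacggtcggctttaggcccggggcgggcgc

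The next 3 hold CACGTG again after 7 further bases, the spacing at which BMAL1 and CLOCK are known to bind as paired dimers: 5930430L01Rik at chr5:148995215-148995294 (minus), Tulp4 at chr17:6106750-6106829 (plus) and Lamp1 at chr8:13159081-13159160 (plus). They were picked after the windows had been searched, and each stretch was placed to hold that pair of motifs.
5930430L01Rik: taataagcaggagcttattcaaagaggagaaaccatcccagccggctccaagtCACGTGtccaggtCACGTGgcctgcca
Tulp4: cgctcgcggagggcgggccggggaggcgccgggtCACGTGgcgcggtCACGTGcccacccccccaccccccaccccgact
Lamp1: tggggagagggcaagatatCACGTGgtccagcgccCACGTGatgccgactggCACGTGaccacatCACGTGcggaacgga

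The last 3, for contrast, are the highest-scoring peaks outside the clock lists whose promoter window holds no CACGTG: 4933433G15Rik at chr9:75410104-75410183 (plus), Atl3 at chr19:7494354-7494433 (plus) and Sertad1 at chr7:27486859-27486938 (plus). Each holds CACGCG.
4933433G15Rik: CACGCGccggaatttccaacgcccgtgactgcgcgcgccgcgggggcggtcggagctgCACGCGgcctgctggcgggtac
Atl3: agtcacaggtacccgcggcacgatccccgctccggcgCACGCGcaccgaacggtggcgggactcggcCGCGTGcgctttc
Sertad1: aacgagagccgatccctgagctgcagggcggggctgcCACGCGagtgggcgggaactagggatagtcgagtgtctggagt

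The centre of 220 of the 500 strongest peaks lay in a RefSeq promoter window of 300 bases, 250 before and 50 after a start, and 205 of these windows belonged to the nearest gene. CACGTG, searched on both strands, stood in 120 of the 220 windows (54.5%), against 541 of 3281 windows at the remaining peaks (16.5%) and 7.15% of all 32851 windows. The strongest peaks also more often had 2 copies of CACGTG (32 of 220, against 52 of 3281) or at least 3 (9 of 220, against 7 of 3281). CACGTG followed by CACGTG after 7 bases was found in 3 of the 220 windows, in none of the 3281 and in 4 of all windows. With 6 bases between, it was found in none of the 220 and in 1 of all windows.

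Other motifs differed less. CACGCG stood in 51.4% of the windows at the strongest peaks, against 24.4% at the remaining peaks and 9.27% of all windows, and CACGTT in 12.3%, against 7.10% and 4.68%. CATGTG stood in 10.0% at the strongest peaks, against 7.71% at the remaining peaks and 14.2% of all windows. For motifs of other factors, the shares at the strongest peaks, the remaining peaks and all windows were 82.7%, 74.1% and 35.7% for GGGCGG, 37.7%, 40.0% and 37.4% for CCAAT, and 3.64%, 2.65% and 5.20% for TGAGTCA. The median GC content of the windows was 66.7%, 63.7% and 52.7% in the same order, and its part in these shares was not tested. With 100 bp of window on both sides of the centre, CACGTG stood within 100 bp at 53 of 102 strongest peaks (52.0%). At the remaining peaks it did so at 191 of 1317 (14.5%). Over the peaks with such a match alone, the median distance of the nearest CACGTG was 19 bp at the strongest and 42 bp at the remaining peaks. A match is a description of the letters.

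The 20 highest scores belonged mostly to clock genes. The strongest peak of all (chr11:98783388-98783600, intergenic, score 201.3) lay at -8117 bp from the start of Nr1d1, the gene of REV-ERB alpha, with 194 and 198 tags per 10000000 in ChIP libraries 1 and 2. Nr1d1 held further sites in an intron at +1487 bp (129.9) and in its promoter at -42 bp (85.1). The following scores were 142.6 at the Tef promoter (chr15:81810961-81811173, -347 bp), 139.0 in an intron of Nr1d2 (chr14:18238549-18238761, +451 bp) and 130.6 at -4055 bp from the start of Per1 (chr11:69094795-69095007). Dbp carried both a promoter site (chr7:45704860-45705072, 127.2) and an intronic site at +2515 bp (chr7:45707656-45707868, 125.5). Ciart, Per2, Hlf, Cry1, Per3 and Cry2 filled further places with scores of 89.7, 86.8, 77.9, 67.6, 66.2 and 64.4. Outside the clock, the places among the first 20 went to 5930430L01Rik (72.6), Nptn (66.1), Fbxl22 (61.6), Lsm3 (61.3, 83136 bp away), Slc45a1 (56.0, 68522 bp away) and 1810013L24Rik (55.6).

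Scores fell off fast: 7 sites scored at least 100, 23 at least 50, 72 at least 30 and 205 at least 20. The ChIP libraries were closer to each other at these sites, with 31 of the 500 differing by over 1.5 times between libraries, against 3059 of the remaining 9868. The SD of the log2 ratio of library 1 over library 2 was 0.31 at the strongest and 0.61 at the remaining peaks, which have fewer tags. The 500 sites were 4.82% of the list and held 15.8% of the tags in listed peaks in each library. They stood on all autosomes and X, with 48 on chromosome 11, 37 on chromosome 4 and 2 on X. Of the genes, 20 were nearest to more than 1 strong site: Bhlhe41, Hlf, Nr1d1 and Pfkfb3 had 3 each, and Bhlhe40, Cry2, Dbp, Gbe1, Gstt2, Hnrnpu, Klf10, Klf15, Klf9, Mnt, Per1, Pim3, Sertad1, Tatdn2, Tef and Tsc22d3 had 2 each. Sites that share a gene are not independent.

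The strongest sites were promoter sites more often than the rest. Of the 500, 355 (71.0%) lay within 1 kb of the nearest start site, against 5640 of 9868 remaining peaks (57.2%), while the share within 100 bp was 30.4%, against 29.1%. In the deposited annotation 324 were classed as promoter, 75 as intergenic, 72 as intronic and 11 as exonic, and 85 lay beyond 10 kb. At 73 sites the starts of at least 2 genes lay within 1 kb, so the nearest gene there is a choice between neighbours. A gene was counted as bound when it was the nearest gene of a strong site within 10 kb of its start. This gave 400 genes, of which 399 had an identifier in the RNA table.

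Accessible regions of 150 bp, called by the authors in each depot, covered at least 75 bp of 342 strong sites in BAT (68.4%) and 318 in WAT (63.6%), 304 in both and 144 in neither. The remaining peaks were covered at 59.4% in BAT and 55.5% in WAT. Beyond 1 kb the strong sites were covered more often than the remaining ones, with 101 of 145 in BAT (69.7%, against 54.3%) and 95 of 145 in WAT (65.5%, against 47.5%). Among the 20 highest scores only 11 were covered in each depot. The sites at Tef (-347 bp), Nr1d2, Per1 (-4055 bp), Nr1d1 (+1487 bp), Dbp (+2515 bp), Cry1, Per3, Nptn and 1810013L24Rik were not. With any overlap of at least 1 bp the counts were 423 in BAT and 407 in WAT.

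The depth of the libraries differed between depots. The totals of estimated RNA counts ran between 4980147 and 46274438 over BAT libraries and between 1301522 and 6481154 over WAT libraries. Those of ATAC tags in regions ran between 3959384 and 12811242 in BAT and between 1623006 and 5294923 in WAT. In 3 WAT RNA libraries (ZT5 replicate 3, ZT9 replicate 3 and ZT17 replicate 2) over 50% of counts fell on ribosomal RNA loci, with up to 66.0%, against at most 4.64% in BAT. Summed levels of 6 adipocyte markers ran between 37748 and 58723 CPM (counts scaled to 1000000 per library) in BAT and between 6587 and 74109 CPM in WAT. Fibroblast and preadipocyte markers (7 genes) ran between 7.84 and 74.7 CPM in BAT and between 80.03 and 1379 CPM in WAT, and 7 macrophage markers between 8.94 and 25.8 CPM in BAT and between 18.1 and 221 CPM in WAT. Endothelial markers (6 genes) ran between 2.89 and 50.8 CPM in BAT and between 5.18 and 126 CPM in WAT. Muscle markers (5 genes) ran between 24.1 and 592 CPM in BAT and between 5.61 and 219 CPM in WAT. Erythroid markers (4 genes) ran between 33.2 and 357 CPM in BAT and between 19.1 and 326 CPM in WAT. Lymphocyte markers (6 genes) ran between 0.10 and 0.77 CPM in BAT and between 24.5 and 139 CPM in WAT. Of these 6 markers 1 was at 0 in every BAT library and none in WAT. None of those marker genes was nearest to a strong site, and the part of other cells in the results of BAT or WAT was not tested. In such bulk libraries fewer cells of a type and less RNA per cell cannot be told apart.

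Daily rhythm was tested for every gene with edgeR's quasi-likelihood F test of a 24 h cosine and sine, with Benjamini-Hochberg adjustment over all genes, and called at an adjusted p under 0.05. Sizes are peak-to-trough differences of the fitted curve on the log2 scale, with the SE. In BAT 58 of the 368 bound genes tested were called (15.8%), against 9.17% of all genes and 478 of 5380 genes nearest to remaining peaks (8.88%). In WAT 39 of 367 were called (10.6%), against 9.89% of all genes and 596 of 5411 (11.01%). Bound genes thus stood above the background in BAT and at it in WAT. The median peak-to-trough difference of bound genes tested was 0.45 in BAT and 0.83 in WAT, in each depot below the 0.49 and 0.98 over all genes.

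Shares were larger at the highest scores in BAT. Of the genes whose best site ranked 1 to 50, 15 of 37 were called in BAT (40.5%), against 14.1% for ranks 51 to 250 and 12.1% for ranks above 250. In WAT the shares were 6 of 35 (17.1%), 7.33% and 12.1%. In BAT 56 of 335 genes with a site within 1 kb were called, and 2 of 33 with a site between 1 and 10 kb. These counts hung on single libraries. In BAT, the 58 became 32, 34, 36 and 38 without ZT1 replicate 2, ZT1 replicate 3, ZT13 replicate 3 and ZT21 replicate 1, and 123 without ZT21 replicate 2. The share of bound genes called was above that of all genes in each of the 17 fits that left out 1 BAT library. It was also above that of all genes in each of the 18 fits that left out 1 WAT library. The lowest WAT share was 4.04%, against 3.47% of all genes, and the highest 22.4%, against 18.4%. In WAT, the 39 became 15, 18, 18, 20, 21, 24 and 25 without ZT21 replicate 1, ZT21 replicate 3, ZT9 replicate 2, ZT17 replicate 3, ZT17 replicate 1, ZT5 replicate 2 and ZT5 replicate 1, and 83 without ZT9 replicate 3. Without all 3 WAT libraries rich in ribosomal RNA, 87 of 370 bound genes were called (23.5%), against 19.7% of all genes.

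**Figure D1:**
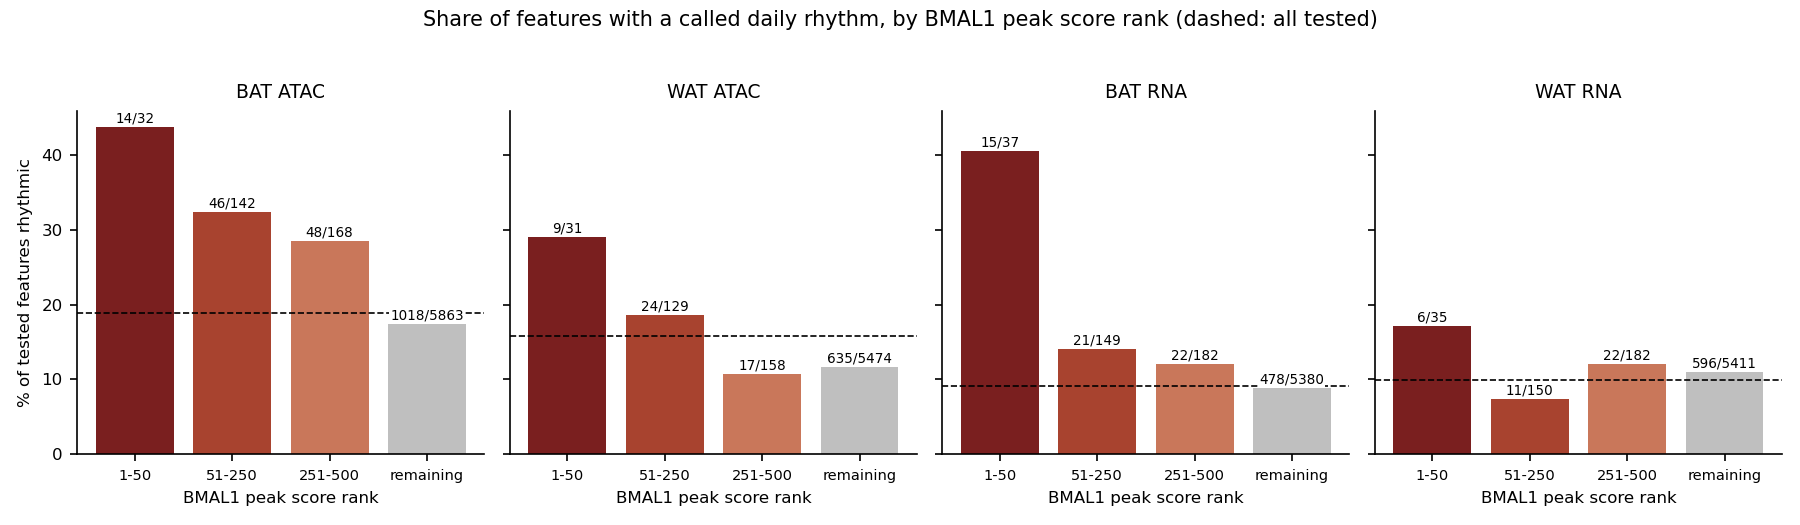
Share of tested features with a called 24 h rhythm (y axis, percent) by rank of the BMAL1 peak score (x axis), for accessible regions and RNA in BAT and WAT. Numbers over the bars are called over tested, and the dashed line is the share over all tested features. In BAT RNA ranks 1 to 50 reach 15 of 37 and the remaining peaks 478 of 5380.

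Of the clock repressors at the top sites, all but Per2 were called in BAT. Nr1d1 RNA in BAT was 46.3, 95.7 and 128 CPM at ZT1, 99.4, 85.9 and 84.1 at ZT5, 66.7, 48.4 and 52.7 at ZT9, 39.4, 56.7 and 47.4 at ZT13, 17.03 and 13.9 at ZT17 and 40.0, 9.93 and 25.5 at ZT21. All libraries of ZT5 lay above all of ZT13, ZT17 and ZT21. The fitted difference was 2.24 ± 0.44 with a peak at ZT5.25 ± 0.696 h (edgeR adjusted p = 0.0129, 17 libraries). In WAT Nr1d1 was 15.8, 21.6 and 19.1 CPM at ZT1, 10.0, 19.7 and 36.1 at ZT5, 23.8, 35.9 and 38.4 at ZT9, 26.9, 21.4 and 44.2 at ZT13, 10.5, 8.83 and 12.2 at ZT17 and 12.6, 15.9 and 10.5 at ZT21. There the ZT9 libraries were all above those of ZT17, and the fit gave 1.46 ± 0.36 with a peak at ZT8.61 ± 0.924 h (edgeR adjusted p = 0.0283, 18 libraries). CPM values were scaled within each depot and are not compared between depots.

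Nr1d2, which encodes REV-ERB beta, peaked at ZT9.51 ± 0.401 h in BAT by 2.03 ± 0.20 (edgeR adjusted p = 4.3e-05) and at ZT9.22 ± 0.992 h in WAT by 1.75 ± 0.46 (edgeR adjusted p = 0.0408). Its BAT libraries read 53.7, 48.9 and 63.0 CPM at ZT9 and 15.3, 12.1 and 11.5 CPM at ZT21, with no overlap. Per1, a repressor that also answers to glucocorticoids, read 34.4, 34.1 and 61.8 CPM at ZT13 and 9.72, 6.46 and 5.76 CPM at ZT21 in BAT, a difference of 2.17 ± 0.35 (edgeR adjusted p = 0.00416). In WAT it missed the threshold (1.03 ± 0.51, edgeR adjusted p = 0.351), its ZT13 libraries reading 14.1, 13.0 and 28.4 CPM and its ZT21 libraries 3.15, 1.3 and 13.1 CPM. The lowest ZT13 library and the highest ZT21 library of WAT overlapped. Per3 swung by 1.51 ± 0.14 in BAT with a peak at ZT13.4 ± 0.381 h (edgeR adjusted p = 4.16e-05), and in WAT gave 1.97 ± 0.68 (edgeR adjusted p = 0.127). Per2 was not called in BAT (0.96 ± 0.36, edgeR adjusted p = 0.145) or WAT (1.62 ± 0.60, edgeR adjusted p = 0.168).

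Cry1 ran in the opposite phase to most bound clock genes. In BAT it read 9.93, 7.81 and 9.10 CPM at ZT21 and 3.38, 2.74 and 3.53 CPM at ZT13, without overlap, a difference of 1.34 ± 0.23 with its peak at ZT22.7 ± 0.69 h (edgeR adjusted p = 0.00623). Cry2 peaked at ZT9.55 ± 0.815 h in BAT by 0.63 ± 0.13 (edgeR adjusted p = 0.0174). Neither was called in WAT, where edgeR gave adjusted p = 0.897 for Cry1 and 0.324 for Cry2. Ciart, a repressor of CLOCK and BMAL1, was at low levels in BAT, with 2.33, 1.79 and 5.45 CPM at ZT13 and 0.235, 0.427 and 0.562 CPM at ZT1. Its BAT difference was 2.86 ± 0.44 (edgeR adjusted p = 0.0026), and in WAT it did not pass the filter on low counts. Bhlhe41, an E-box repressor, peaked at ZT11.5 ± 0.606 h in BAT by 1.25 ± 0.19 (edgeR adjusted p = 0.00208) and gave 1.51 ± 0.50 in WAT (edgeR adjusted p = 0.11). Its relative Bhlhe40 gave 1.44 ± 0.62 in BAT (edgeR adjusted p = 0.219) and was called in WAT by 2.07 ± 0.53 (edgeR adjusted p = 0.0351). Of the 21 core clock genes listed, 11 were bound: 8 of 11 tested were called in BAT and 3 of 10 in WAT.

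**Figure D2:**
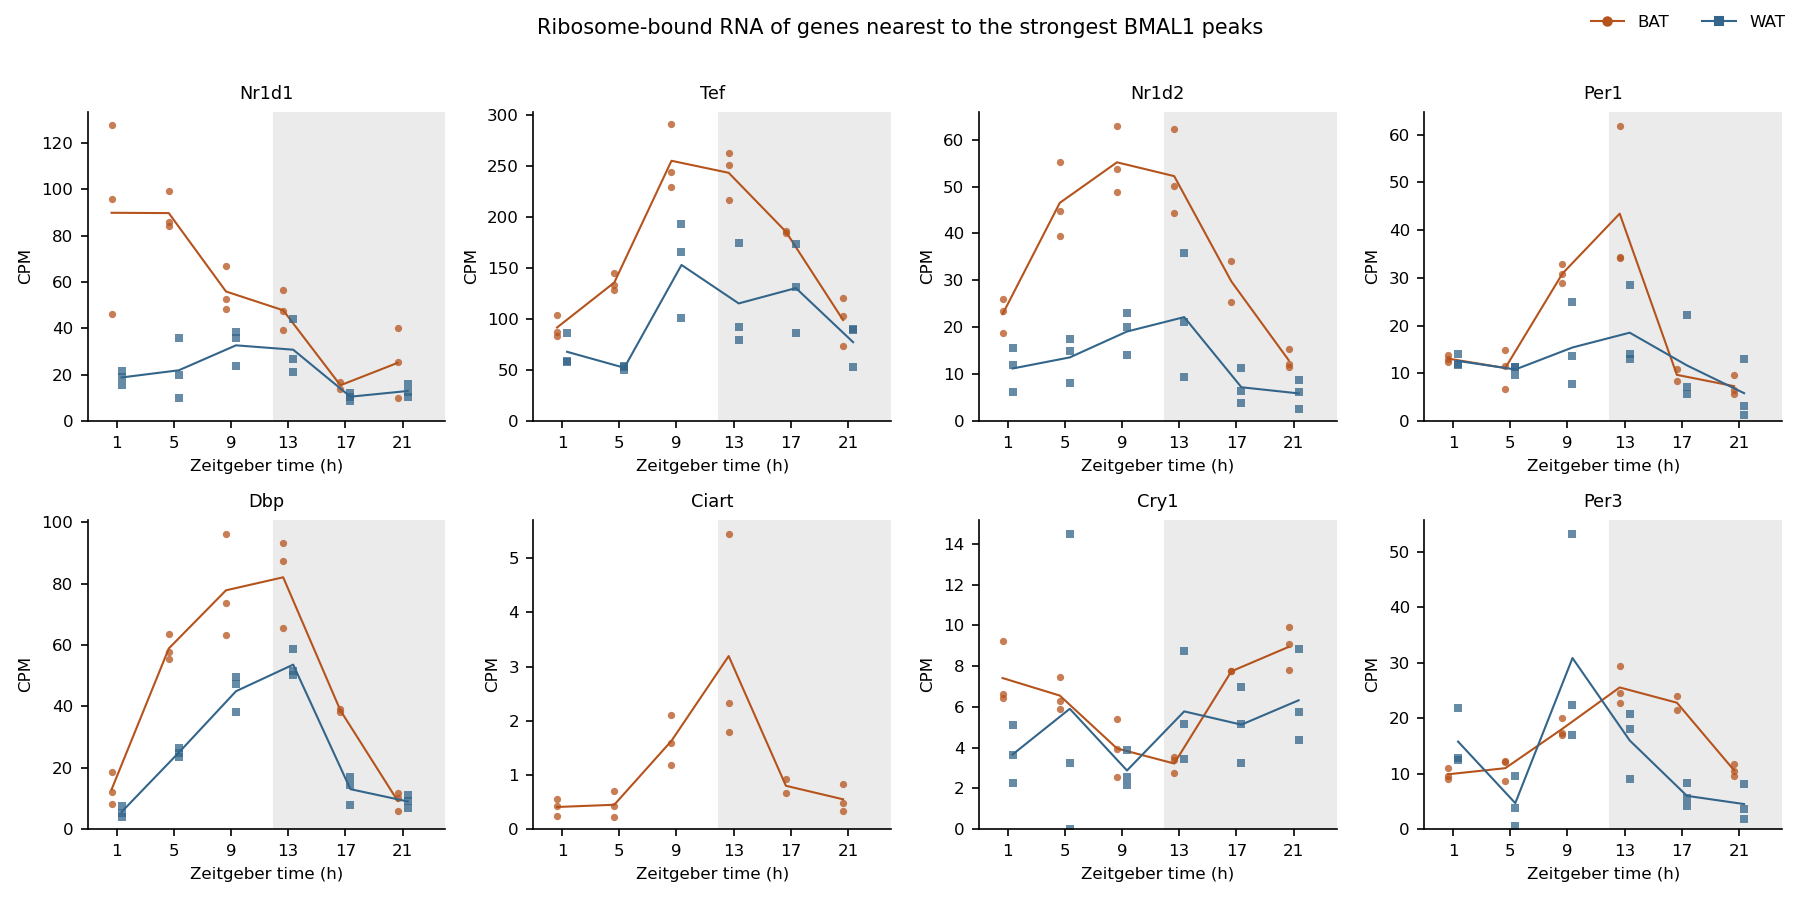
Ribosome-bound RNA (y axes, CPM scaled within depot) of 8 genes nearest to top-scoring BMAL1 sites against zeitgeber time (x axes, h). Points are libraries (BAT circles, WAT squares), lines join the means, and grey marks the dark phase by the usual lights-off at ZT12. Dbp has the widest swing in both depots, Cry1 is high at ZT21 in BAT, and Ciart is shown in BAT alone because it did not pass the filter in WAT.

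Tef in BAT and Dbp in WAT, both PAR bZIP genes, had the smallest adjusted p of the bound genes in their depot. Dbp read 8.30, 11.9 and 18.5 CPM at ZT1, 63.5, 55.5 and 57.7 at ZT5, 73.8, 63.4 and 96.4 at ZT9, 65.7, 87.5 and 93.2 at ZT13, 39.1 and 38.3 at ZT17 and 10.2, 5.78 and 11.8 at ZT21 in BAT. In WAT it read 5.09, 4.01 and 7.68 CPM at ZT1, 23.7, 26.4 and 24.8 at ZT5, 38.0, 49.7 and 47.2 at ZT9, 51.7, 58.8 and 50.4 at ZT13, 7.79, 16.9 and 14.4 at ZT17 and 11.02, 9.10 and 6.93 at ZT21. In both depots all libraries of ZT5, ZT9 and ZT13 lay above all of ZT1 and ZT21. The difference was 3.35 ± 0.33 in BAT, peaking at ZT10.2 ± 0.398 h (edgeR adjusted p = 4.16e-05), and 3.24 ± 0.33 in WAT, peaking at ZT10.6 ± 0.384 h (edgeR adjusted p = 2.75e-05).

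Tef read 229, 244 and 291 CPM at ZT9 and 83.3, 87.6 and 104 CPM at ZT1 in BAT, without overlap, a difference of 1.63 ± 0.14 (edgeR adjusted p = 1.37e-05). In WAT it gave 1.299 ± 0.34 with a peak at ZT13.3 ± 1.00 h (edgeR adjusted p = 0.0392). Hlf was called in BAT by 0.70 ± 0.18 (edgeR adjusted p = 0.0429) and gave 1.84 ± 0.55 in WAT (edgeR adjusted p = 0.0749). Nampt, the rate-limiting enzyme of NAD salvage, gave 0.46 ± 0.15 in BAT (edgeR adjusted p = 0.112) and was called in WAT by 0.98 ± 0.25 with a peak at ZT16.1 ± 0.957 h (edgeR adjusted p = 0.0322). Cipc, Coq10b and Tspan4 were called in neither depot. Por, which hands electrons to cytochrome enzymes, and Tsc22d3, a glucocorticoid target, had their sites beyond 10 kb. Both were called in BAT with edgeR adjusted p = 0.0361 for Por and 0.047 for Tsc22d3. Neither gene was called in WAT. Of the other nearest genes of the 20 highest scores, 5930430L01Rik, Nptn, Fbxl22, Lsm3 and 1810013L24Rik were called in neither depot and Slc45a1 did not pass the filter. Of the 24 output genes listed, 8 were bound within 10 kb, with 4 called in BAT and 3 in WAT.

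In BAT 15 of 58 called bound genes (25.9%) peaked between ZT23 and ZT3, against 31.6% of all called genes. Pfkfb3, which makes the activator of phosphofructokinase in glycolysis and had 3 strong sites, read 99.8, 168 and 170.1 CPM at ZT1 and 35.7, 48.0 and 31.7 CPM at ZT13 in BAT. In WAT it read 55.1, 118 and 96.1 CPM at ZT1 and 35.6, 64.9 and 68.2 CPM at ZT13. The groups were apart in BAT (1.75 ± 0.25, edgeR adjusted p = 0.00179) and overlapped in WAT (0.37 ± 0.32, edgeR adjusted p = 0.702). Sik2, a kinase of the insulin signalling list, peaked at ZT23.7 ± 0.583 h in BAT by 1.55 ± 0.22 (edgeR adjusted p = 0.00184). Gnai1, an inhibitory G protein subunit, peaked at ZT1.32 ± 0.689 h in BAT by 1.33 ± 0.23 (edgeR adjusted p = 0.00685). Phf1, a Polycomb partner, peaked instead at ZT10.8 ± 0.6 h by 0.87 ± 0.13 (edgeR adjusted p = 0.00208). None of Sik2, Gnai1 and Phf1 was called in WAT, where edgeR gave adjusted p of at least 0.585. The test of the depot difference itself, given further on for all genes, had edgeR adjusted p = 0.0292 for Sik2, 0.0437 for Phf1 and 0.0388 for Pfkfb3. Leaving out 1 of 35 libraries ended that call in 5 fits for Sik2, 21 for Phf1 and 16 for Pfkfb3, at edgeR adjusted p up to 0.0571, 0.0804 and 0.0827. For Sik2 these were the fits without BAT ZT1 replicate 2, ZT9 replicates 2 and 3 and ZT21 replicate 3 and WAT ZT21 replicate 3.

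In WAT the smallest p-values after Dbp belonged, apart from Map3k14, to genes with a late dark-phase peak. Pcx, pyruvate carboxylase, read 146, 199 and 188 CPM at ZT21 and 161, 149 and 139 CPM at ZT5 in BAT, which overlapped. In WAT it read 274, 292 and 349 CPM at ZT21 and 90.8, 74.0 and 106 CPM at ZT5, without overlap. The difference was 0.03 ± 0.13 in BAT (edgeR adjusted p = 0.985) and 1.69 ± 0.28 in WAT (edgeR adjusted p = 0.00291). Ldha, lactate dehydrogenase A, read 760.0, 464 and 1049.5 CPM at ZT21 and 236, 184 and 208 CPM at ZT5 in WAT, without overlap. Its difference was 0.58 ± 0.16 in BAT (edgeR adjusted p = 0.0596) and 1.92 ± 0.32 in WAT (edgeR adjusted p = 0.00338). Ddhd2, a lipid hydrolase, Rpia, of the pentose phosphate pathway, Ran, of nuclear transport, and Rps28, of the small ribosomal subunit, peaked in WAT at ZT20.1, ZT20.0, ZT21.2 and ZT19.6. Their WAT differences ran between 1.497 for Ran and 1.91 for Ddhd2, and none of the 4 was called in BAT. Map3k14, a kinase of NF-kB signalling, went the other way in WAT, with 7.52, 15.4 and 16.9 CPM at ZT5 and 0.362, 0.535 and 0.272 CPM at ZT17 (4.30 ± 0.74, edgeR adjusted p = 0.00436), and did not pass the filter in BAT. The Rps28 site lay 6745 bp from its start.

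Of all genes tested in BAT RNA, 368 of 12394 were bound. Of the fatty acid synthesis list 4 of 20 genes were bound, and 2 of these, Pcx and Acaca, were called in WAT and none in BAT. Acaca, acetyl-CoA carboxylase, gave 1.38 ± 0.30 in WAT with a peak at ZT20.7 ± 0.832 h (edgeR adjusted p = 0.0152), which missed the threshold without WAT ZT21 replicate 3, at edgeR adjusted p = 0.062. Insig1 and Insig2, which hold back sterol-driven lipogenesis, were not called in BAT or WAT. Of the glycolysis list 4 of 19 were bound: Pfkfb3 was called in BAT, Ldha in WAT, and Gpi1 and Pfkl in neither. Of insulin signalling 2 of 18 were bound, Sik2, called in BAT, and Foxo3, at 0.70 ± 0.19 in BAT (edgeR adjusted p = 0.0583) and 1.12 ± 0.38 in WAT (edgeR adjusted p = 0.122).

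Of the adipogenic factors 2 of 16 were bound. Klf9 was called in BAT by 0.81 ± 0.21 (edgeR adjusted p = 0.0447), and Klf15 in neither depot. Per1 and Klf9 were also the 2 bound genes of 13 glucocorticoid targets. Single bound genes were Dgat2 of triglyceride synthesis, Mgll of lipolysis and Acsl1 of fatty acid oxidation, none of them called in BAT or WAT. The thermogenesis list of 22 genes, the heat shock list of 15 and the adipokine list of 14 held no gene nearest to any of the 500 sites.

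Some calls near the threshold rested on single libraries, each left out in turn. In BAT these were Hlf, Tsc22d3, Por and Klf9. The call of Hlf was lost in 13 of 17 fits and kept without ZT5 replicates 1 and 2, ZT9 replicate 2 and ZT21 replicate 2 (edgeR adjusted p up to 0.0872). The call of Tsc22d3 was lost in 14 of 17 fits and kept without ZT1 replicate 2 and ZT21 replicates 2 and 3 (edgeR adjusted p up to 0.0984). The call of Por was lost without ZT1 replicates 1 and 2, ZT9 replicates 2 and 3, ZT13 replicate 3, ZT17 replicate 2 and ZT21 replicate 1 (edgeR adjusted p up to 0.0929). The call of Klf9 was lost in 12 of 17 fits and kept without ZT5 replicate 3, ZT9 replicates 2 and 3, ZT17 replicate 1 and ZT21 replicate 2 (edgeR adjusted p up to 0.0867).

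In WAT the calls of Nr1d1, Tef, Nr1d2, Bhlhe40, Nampt, Pip5k1c and Gorasp2 rested on single libraries. The call of Nr1d1 was lost without ZT9 replicate 2, ZT17 replicates 1 and 3 and ZT21 replicates 1 and 3 (edgeR adjusted p up to 0.0803). The call of Tef was lost in 13 of 18 fits and kept without ZT1 replicate 2, ZT9 replicate 3, ZT13 replicates 1 and 2 and ZT17 replicate 2 (edgeR adjusted p up to 0.0935). The call of Nr1d2 was lost in 11 of 18 fits and kept without ZT1 replicates 2 and 3, ZT5 replicate 2, ZT9 replicate 3, ZT13 replicates 1 and 2 and ZT21 replicate 2 (edgeR adjusted p up to 0.116). The call of Bhlhe40 was lost in 11 of 18 fits and kept without ZT5 replicates 1 and 3, ZT9 replicate 3, ZT13 replicates 1, 2 and 3 and ZT21 replicate 2 (edgeR adjusted p up to 0.115). The call of Nampt was lost in 12 of 18 fits and kept without ZT5 replicate 3, ZT9 replicate 3, ZT13 replicates 1 and 2, ZT17 replicate 2 and ZT21 replicate 2 (edgeR adjusted p up to 0.12). The call of Pip5k1c was lost without ZT9 replicate 2, ZT17 replicate 1 and ZT21 replicates 1 and 3 (edgeR adjusted p up to 0.0563). The call of Gorasp2 was lost without ZT21 replicate 1 (edgeR adjusted p up to 0.0548). Calls were gained in BAT for Coq10b, Cipc, Ldha, Rps28, Ddhd2, Rras, Pip5k1c and Acsl1 without ZT21 replicate 2, Nampt and Cipc without ZT5 replicate 2, Rps28 and Acsl1 without ZT5 replicate 3, Ddhd2 and Pip5k1c without ZT9 replicate 3, Ldha without ZT17 replicate 1, Foxo3 without ZT13 replicate 1 and Acsl1 without ZT1 replicate 1. In WAT they were gained for Lsm3, Rras, Dgat2, Mgll and Klf15 without ZT9 replicate 3, Hlf, Lsm3 and Rras without ZT21 replicate 2, Hlf without ZT17 replicate 3, Per3 without ZT5 replicate 1, Rras without ZT5 replicate 3 and Dgat2 without ZT13 replicate 2.

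Other settings also ended calls of named genes (adjusted p values by edgeR). In BAT, with no filter on low counts, the adjusted p was 0.0514 for Tsc22d3. In WAT, with no filter on low counts, the adjusted p was 0.111 for Nampt and 0.0653 for Gorasp2. In BAT, with time as a factor, the adjusted p was 0.0938 for Tsc22d3 and 0.0738 for Klf9. In WAT, with time as a factor, the adjusted p was 0.0641 for Nr1d2 and 0.0577 for Nampt. In BAT, with total counts scaling, the adjusted p was 0.448 for Hlf, 0.0637 for Cry2, 0.0689 for Tsc22d3, 0.0744 for Por and 0.191 for Klf9. In WAT, with total counts scaling, the adjusted p was 0.224 for Nr1d1, 0.354 for Tef, 0.208 for Nr1d2, 0.109 for Bhlhe40, 0.344 for Nampt, 0.0684 for Pip5k1c, 0.0852 for Gorasp2 and 0.0927 for D10Wsu102e. In WAT, without the libraries rich in ribosomal RNA, the adjusted p was 0.0598 for Nr1d1.

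Of all the bound genes tested in both depots, 5 of 359 were called in both (1.39%, against 1.24% of all genes): Dbp, Nr1d1, Nr1d2, Tef and Ankrd12, an ankyrin repeat gene. By hour, in BAT 23 of 58 called bound genes (39.7%) peaked between ZT3 and ZT11, against 20.8% of all called genes. In WAT 26 of 39 (66.7%) peaked between ZT15 and ZT23, against 68.9% of all called genes.

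Accessibility at the strongest sites was called rhythmic at a share above the background in BAT and, over all distances, at the background in WAT. By the same edgeR test on tags per region, 108 of 342 regions at strong sites were called in BAT (31.6%), against 18.9% of all regions and 1018 of 5863 at remaining peaks (17.4%). In WAT 50 of 318 were called (15.7%), against 15.8% of all regions and 635 of 5474 at remaining peaks (11.6%). Within 1 kb of a start 70 of 241 were called in BAT (29.0%, against 13.5% of all such regions) and 18 of 223 in WAT (8.07%, against 6.32%). Beyond 1 kb 38 of 101 were called in BAT (37.6%, against 21.2%) and 32 of 95 in WAT (33.7%, against 23.0%). Here and below, regions at strong sites were split by the distance of their BMAL1 peak from the start. All regions and those at remaining peaks were split by the distance of the region itself. By rank the shares were 14 of 32, 46 of 142 and 48 of 168 in BAT and 9 of 31, 24 of 129 and 17 of 158 in WAT, for ranks 1 to 50, 51 to 250 and above 250.

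The swings were small. The median peak-to-trough difference of called regions at strong sites was 0.34 on the log2 scale in BAT and 0.56 in WAT, against 0.60 and 0.69 over all called regions. In BAT 24 of 88 regions whose window holds CACGTG were called and 20 of 81 without it, and in WAT 10 of 80 and 3 of 81. Leaving out 1 library moved the BAT count between 73 and 107 and the WAT count between 41 and 51. In each of the 18 BAT fits the share at strong sites was above that of all regions, and in 6 of the 18 WAT fits.

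Most called regions at strong sites peaked in the light phase, and at promoters those at weaker sites did so as well. In BAT 92 of the 108 called regions (85.2%) peaked between ZT3 and ZT11, against 632 of 1018 at remaining peaks (62.1%) and 31.3% of all called regions. In WAT 31 of 50 (62.0%) peaked in those hours, against 261 of 635 at remaining peaks (41.1%) and 31.2% of all. Within 1 kb of a start the share in BAT was 62 of 70 (88.6%), against 485 of 553 at remaining peaks (87.7%) and 76.9% of all called regions there. In WAT it was 9 of 18 (50.0%) within 1 kb, against 101 of 172 at remaining peaks (58.7%) and 52.4% of all. Beyond 1 kb the strong sites lay further from the others, with 30 of 38 in BAT (78.9%), against 147 of 465 (31.6%) and 19.1% of all, and 22 of 32 in WAT (68.8%), against 160 of 463 (34.6%) and 26.8% of all. Peaks between ZT15 and ZT23 numbered 2 of 70 in BAT within 1 kb (2.86%, against 2.53% at remaining peaks) and 3 of 18 in WAT (16.7%, against 17.4%). Beyond 1 kb they numbered 4 of 38 in BAT (10.5%, against 42.2%) and 2 of 32 in WAT (6.25%, against 40.4%). The ChIP was made at ZT4, within the hours in which most of these regions peaked, and sites bound at other hours alone were not sampled. The share of all region tags that fell on regions at strong sites had its lowest mean, 1.53% ± 0.03, at ZT17 and its highest, 1.68% ± 0.02, at ZT5 in BAT. In WAT the lowest mean was 1.94% ± 0.04 at ZT21 and the highest 2.10% ± 0.02 at ZT1 (SD, n = 3 each).

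**Figure D3:**
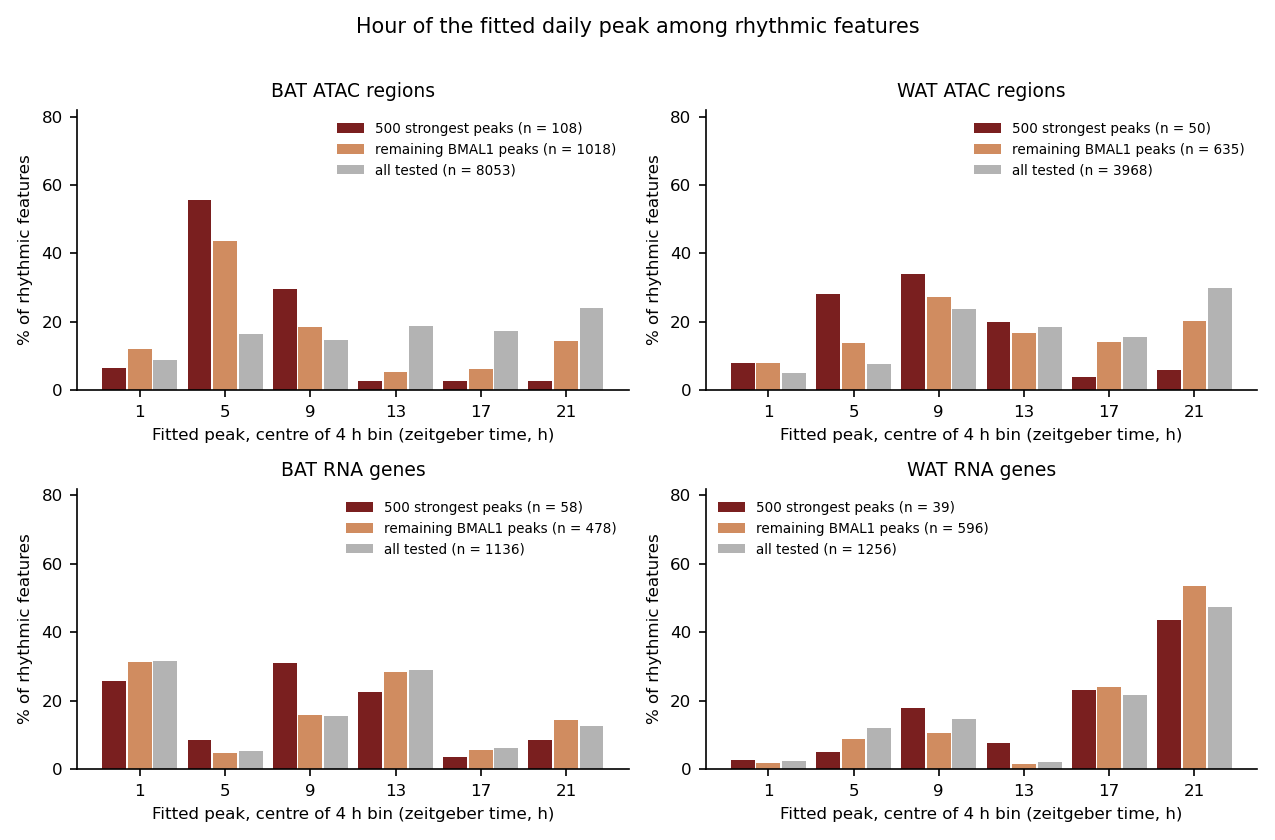
Hour of the fitted daily peak among called features (x axes, centre of 4 h bins) as percent of each set (y axes), for regions (top) and RNA (bottom) in BAT and WAT. Dark bars are features at the 500 strongest BMAL1 sites, orange bars those at remaining BMAL1 peaks and grey bars all called features. At strong sites 85.2% of called BAT regions peak between ZT3 and ZT11, and within 1 kb of a start 88.6% do, against 87.7% at remaining peaks. All panels pool distances, and called WAT genes peak late whether bound or not.

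The single strongest site, at -8117 bp from the Nr1d1 start, was itself rhythmic in BAT. Its region read 48.5, 56.0 and 56.1 CPM at ZT1, 56.3, 53.4 and 48.7 at ZT5, 60.5, 51.9 and 57.1 at ZT9, 50.8, 45.3 and 42.0 at ZT13, 29.1, 26.5 and 34.9 at ZT17 and 29.3, 34.2 and 42.9 at ZT21. All libraries of ZT1, ZT5 and ZT9 lay above those of ZT17 and ZT21. The difference was 0.85 ± 0.12 with a peak at ZT6.13 ± 0.566 h (edgeR adjusted p = 0.000432, 18 libraries). In WAT the same site gave 0.21 ± 0.15 (edgeR adjusted p = 0.551), with 51.3, 66.9 and 65.9 CPM at ZT1 and 46.4, 35.9 and 56.8 CPM at ZT17, which overlapped.

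Bhlhe41 held the firmest region in BAT, 9551 bp downstream of the start (chr6:145855763-145855975). It read 27.3, 28.5 and 26.99 CPM at ZT9 and 14.4, 13.4 and 10.9 CPM at ZT21 in BAT, and 39.9, 30.0 and 42.4 CPM at ZT9 and 6.99, 14.8 and 11.7 CPM at ZT21 in WAT. The groups did not overlap in either depot, with differences of 1.08 ± 0.13 in BAT (edgeR adjusted p = 0.000106) and 1.45 ± 0.20 in WAT (edgeR adjusted p = 0.00015). The Bhlhe41 promoter region at -158 bp swung less, by 0.34 ± 0.10 in BAT and 0.86 ± 0.16 in WAT, and was called in both. The Per1 promoter region at -172 bp gave 0.51 ± 0.07 in BAT with a later peak at ZT11.1 ± 0.524 h (edgeR adjusted p = 0.000346) and no WAT region covered it. The Ciart promoter at -142 bp was called in BAT (0.52 ± 0.09, ZT10.5 ± 0.665 h) and WAT (0.44 ± 0.12, ZT11.01 ± 1.04 h). The Dbp promoter at -281 bp moved by 0.16 ± 0.06 in BAT (edgeR adjusted p = 0.102) and 0.31 ± 0.07 in WAT (edgeR adjusted p = 0.00819). RNA of Dbp swung by 10.2 times in BAT and 9.45 times in WAT, and its promoter region by 1.12 and 1.24 times.

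Several of the strongest clock sites had regions that did not pass. The Per2 promoter region gave 0.05 ± 0.07 in BAT (edgeR adjusted p = 0.819) and 0.28 ± 0.10 in WAT (edgeR adjusted p = 0.122). The Nr1d1 promoter region at -42 bp gave 0.24 ± 0.07 in BAT (edgeR adjusted p = 0.0636) and 0.44 ± 0.13 in WAT (edgeR adjusted p = 0.0502). Both Cry2 regions were called in neither depot. The same held for the region at the weaker Cipc site (score 16.9) and, outside the clock lists, for the Slc45a1 region. Hlf had 3 strong sites, and all 3 regions were called in BAT with differences of 0.23 ± 0.07, 0.24 ± 0.07 and 0.52 ± 0.15 at -27215, -15 and +21104 bp. Neither of the Hlf regions listed in WAT, at -27215 and -15 bp, was called there. Of the Pfkfb3 regions, that at -11210 bp was called in both depots, by 0.23 ± 0.07 with a peak at ZT22.7 ± 1.07 h in BAT and by 0.31 ± 0.08 with a peak at ZT1.31 ± 1.03 h in WAT. The regions of Tsc22d3 were called in WAT alone, by 0.55 ± 0.10 at +31446 bp and 0.64 ± 0.11 at +22316 bp, and the depot difference was not called for either.

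Distal sites near genes outside the core clock list also swung widely. The site at -11624 bp from the start of Pim3 (chr15:88850464-88850676), a survival kinase, read 52.3, 52.5 and 49.5 CPM at ZT5 and 30.6, 29.5 and 31.5 CPM at ZT21 in BAT, and 55.3, 56.8 and 56.7 CPM at ZT9 and 18.9, 15.0 and 20.4 CPM at ZT21 in WAT. In both depots the groups were apart. Its differences were 0.66 ± 0.08 in BAT (edgeR adjusted p = 0.00014) and 1.43 ± 0.16 in WAT (edgeR adjusted p = 3.04e-05). The site at -2618 bp from the start of Gstt2, a glutathione transferase, gave 0.78 ± 0.10 in BAT and 0.92 ± 0.10 in WAT, with peaks at ZT5.93 ± 0.509 h and ZT5.60 ± 0.422 h. The site at -14121 bp from the start of Por gave 1.06 ± 0.17 in BAT and 1.05 ± 0.15 in WAT.

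The widest swing of the named regions was at a site at -23985 bp from the start of Zcchc14, with 16.0, 18.7 and 9.80 CPM at ZT5 and 3.38, 3.98 and 5.28 CPM at ZT17 in BAT (1.86 ± 0.26, edgeR adjusted p = 0.000359). Those times did not overlap, though the ZT5 libraries spread widely. Regions near Gm29683 and Nmnat2, a maker of NAD, gave 0.92 ± 0.12 and 0.86 ± 0.12 in BAT. In WAT, regions near Galnt2, an enzyme of O-linked glycosylation, Zfp36, which speeds mRNA decay, Tns2, a focal adhesion protein, and Eif5a2, a translation factor, gave 1.28 ± 0.16, 1.15 ± 0.15, 0.80 ± 0.12 and 0.65 ± 0.10. They peaked between ZT4.34 for Zfp36 and ZT7.97 for Tns2.

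**Figure D4:**
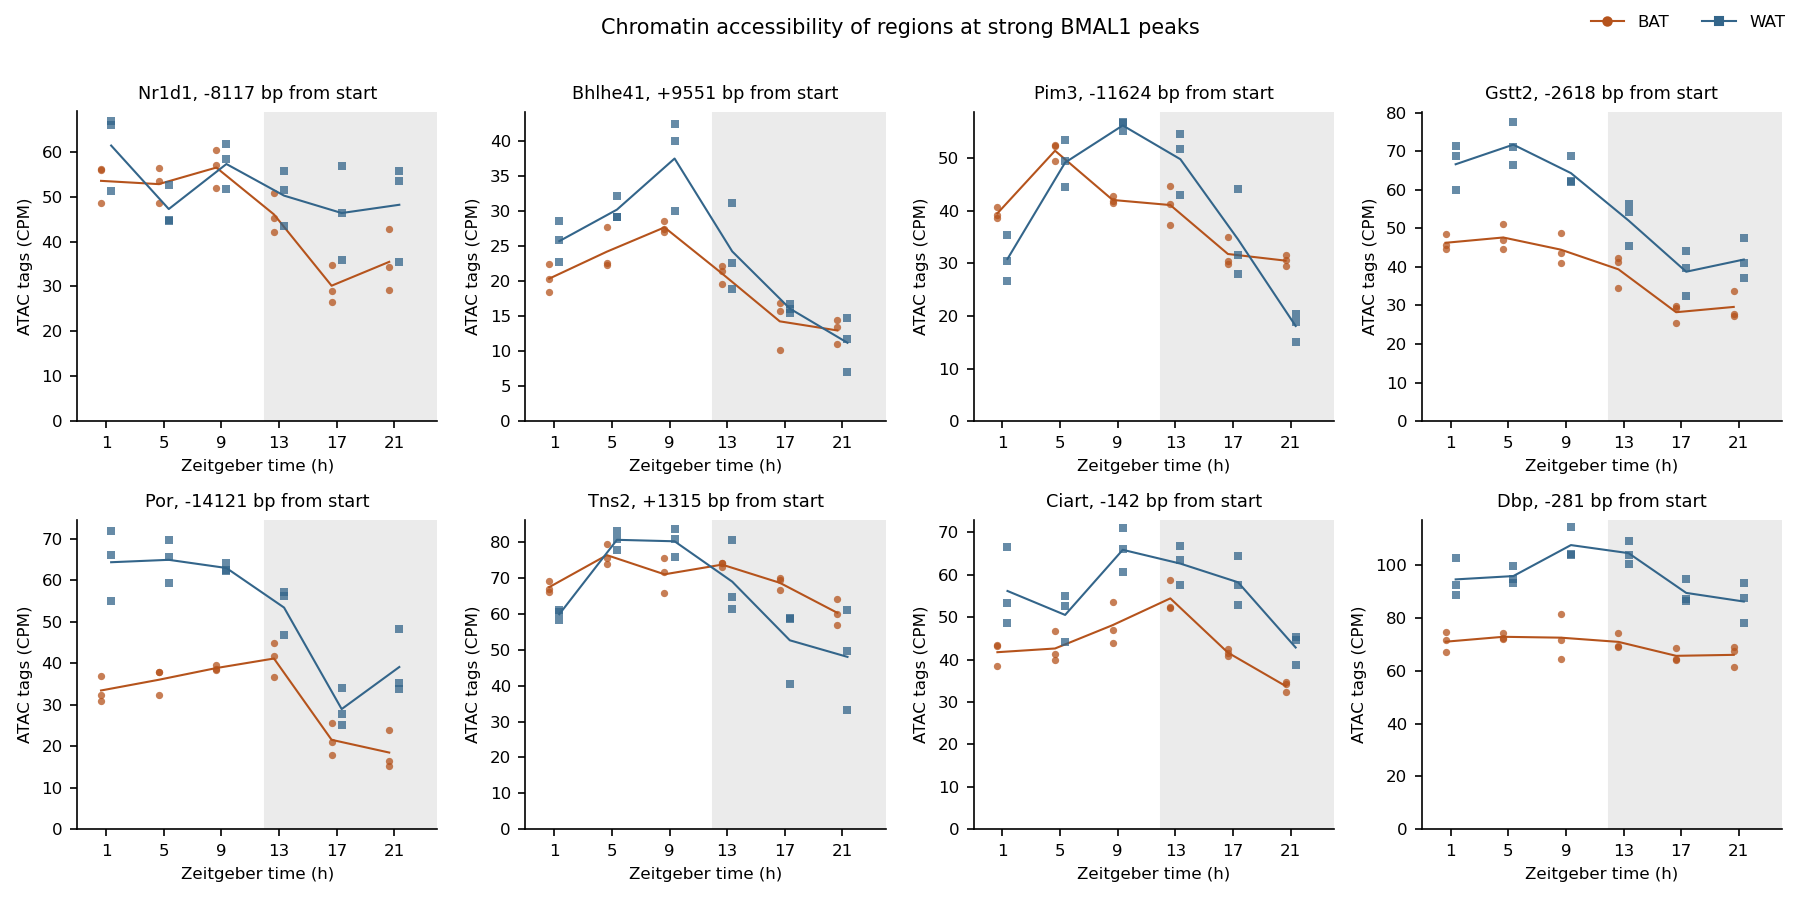
Accessibility of 8 regions at strong BMAL1 sites (y axes, ATAC tags in CPM scaled within depot) against zeitgeber time (x axes, h), with the distance of the site from the start of its nearest gene. Points are libraries (BAT circles, WAT squares), lines join the means and grey marks the dark phase. At Bhlhe41 the ZT9 libraries lie above those of ZT21 in both depots, while Nr1d1 separates its times in BAT and overlaps in WAT.

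Rhythm of a region and rhythm of its gene met in part. In BAT 77 of 259 regions within 10 kb of a tested gene were called, and at 19 of these 77 (24.7%) the gene's RNA was called too, against 26 of the 182 regions not called (14.3%). In WAT this was 5 of 27 (18.5%), against 20 of 217 (9.22%). The same shares were not computed over all regions, so whether strong sites differ from other regions in this was not tested. Bhlhe41 entered the 19 by its regions at both 9551 and -158 bp from the start. The BAT pairs included Nr1d1, Ciart, Bhlhe41, Per1, Hlf, Tef, Pfkfb3, Sik2, Junb and Tns2, and the WAT pairs were Acaca, Adap1, Dbp, Ldha and Pip5k1c. In WAT the RNA peaked 0.39 to 6.28 h after the region in all 5 pairs. In BAT the RNA followed the region within 8 h in 10 of 19 pairs, among them Tef by 2.47 h and Hlf by 3.68 h. In the other 9 the fitted RNA peak came before that of the region, by 0.13 to 10.7 h, as with -0.88 h at Nr1d1, -2.14 h at Pfkfb3 and -3.56 h at Sik2. With 5 and 19 pairs these lags are a description.

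Depots were compared by testing whether the cosine and sine terms differ, BAT minus WAT. In RNA 46 of 359 bound genes differed (12.8%), against 13.1% of all genes and 717 of 5197 near remaining peaks (13.8%), so bound genes differed between depots about as often as any gene. The share was 3 of 35 at ranks 1 to 50, 13 of 147 at ranks 51 to 250 and 30 of 177 at ranks above 250. Of the 11 core clock genes bound, 10 could be tested and 1 differed, Nr1d1, with a difference curve of 1.76 ± 0.52 (edgeR adjusted p = 0.0488). That call was lost in 23 of the 35 fits that left out 1 library, at edgeR adjusted p up to 0.15. For Dbp the difference curve was 0.29 ± 0.45 (edgeR adjusted p = 0.876), for Tef 0.65 ± 0.37 (0.389) and for Nr1d2 0.25 ± 0.47 (0.911), and a p that misses the threshold does not show equal curves.

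The smallest p of the depot difference was at Ran. It read 312, 397 and 396 CPM at ZT9 and 263, 371 and 259 CPM at ZT21 in BAT, which overlapped. In WAT it read 146, 142 and 277 CPM at ZT21 and 76.6, 65.3 and 99.2 CPM at ZT9, which did not. The difference curve was 1.69 ± 0.31 (edgeR adjusted p = 0.00604). Pcx (1.62 ± 0.32, edgeR adjusted p = 0.00844), Ddhd2 (1.65 ± 0.36, 0.0133) and Gorasp2, a Golgi protein (1.19 ± 0.25, 0.0113), shared this form, called in WAT with a peak between ZT19.1 and ZT20.1 and not called in BAT. Gnai1 had the reverse form, called in BAT and not in WAT, with a difference of 1.67 ± 0.33 (edgeR adjusted p = 0.00842).

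Rras, a small GTPase, was called in neither depot alone, with fitted peaks at ZT0.671 ± 1.15 h in BAT and ZT11.04 ± 1.08 h in WAT, and its curves differed by 2.00 ± 0.42 (edgeR adjusted p = 0.0103). Pip5k1c, a kinase of membrane phosphoinositides, read 1.57, 2.99 and 2.79 CPM at ZT1 and 1.47, 0.705 and 0 CPM at ZT9 in BAT, and 33.1, 22.9 and 26.5 CPM at ZT5 and 3.44, 8.56 and 7.62 CPM at ZT17 in WAT. These times did not overlap in either depot, and the curves differed by 3.25 ± 0.68 (edgeR adjusted p = 0.0103). D10Wsu102e was called in WAT, and its curves differed by 2.22 ± 0.49 (edgeR adjusted p = 0.0136).

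The count of 46 moved with single libraries. It was 13, 17, 22, 22, 28, 29 and 30 without BAT ZT9 replicate 3, BAT ZT9 replicate 2, BAT ZT21 replicate 1, BAT ZT21 replicate 3, BAT ZT1 replicate 2, BAT ZT17 replicate 1 and BAT ZT17 replicate 2, and 72 without BAT ZT21 replicate 2. It was 17, 23 and 27 without WAT ZT21 replicate 3, WAT ZT21 replicate 1 and WAT ZT9 replicate 2, and 102 without WAT ZT9 replicate 3. The share of bound genes that differed was above that of all genes in 6 of the 35 fits that left out 1 library. Without the 3 WAT libraries rich in ribosomal RNA, 121 of 361 bound genes differed (33.5%), against 31.9% of all genes.

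**Figure D5:**
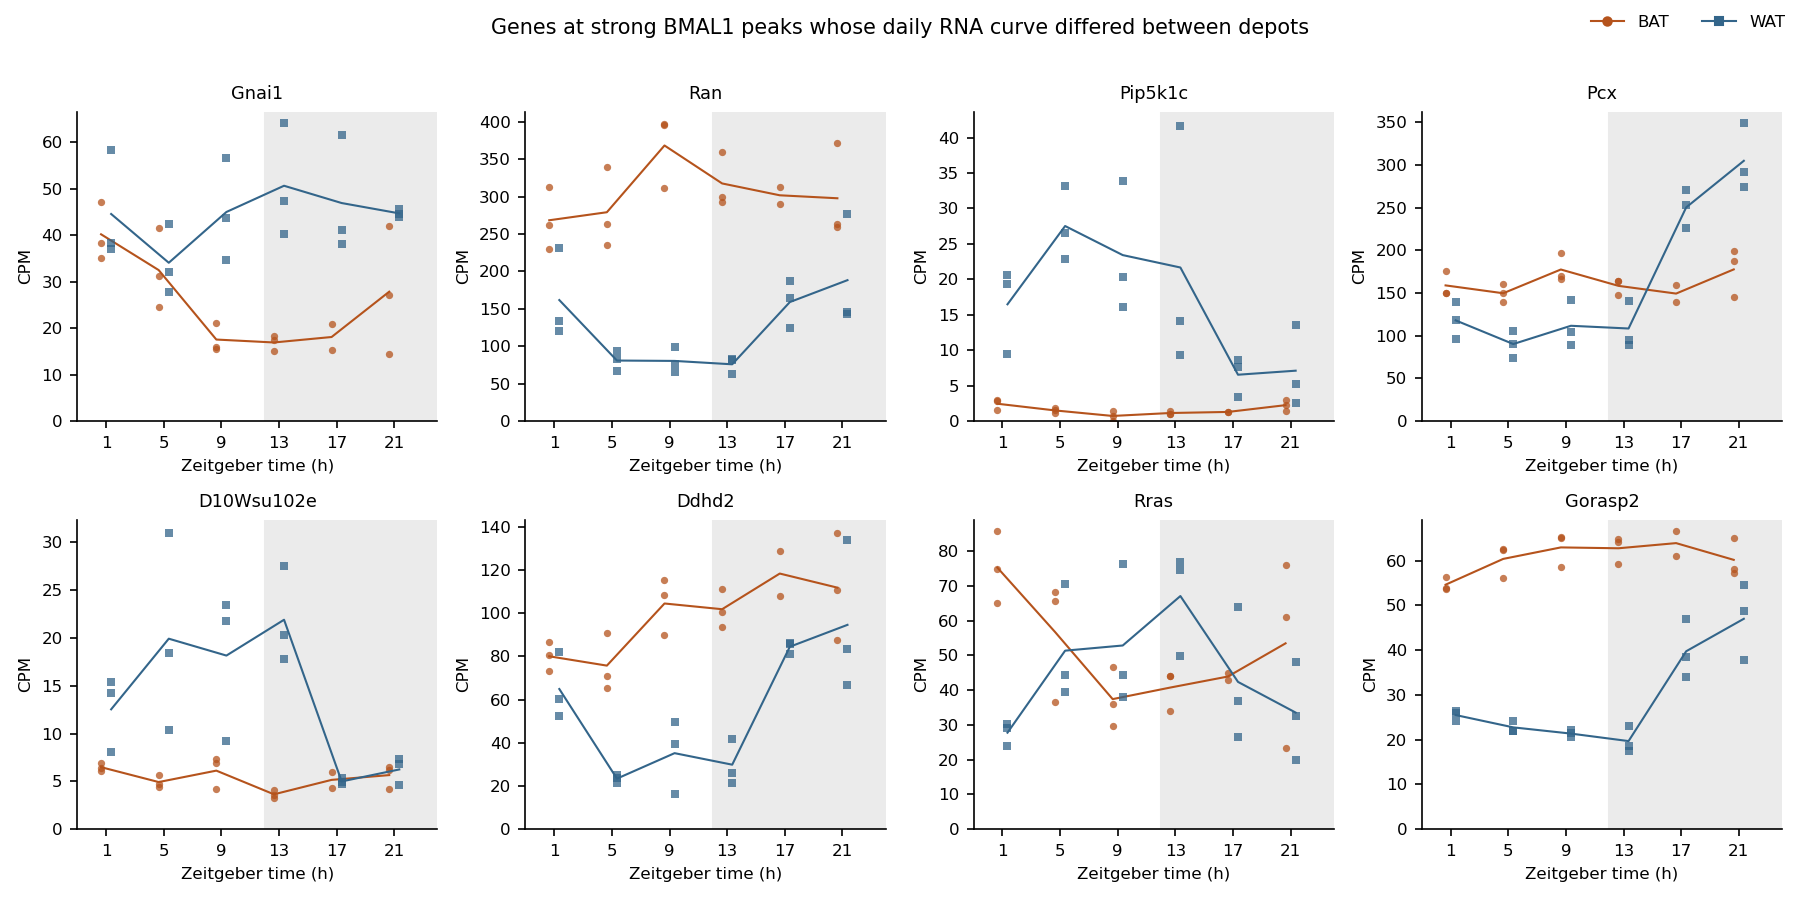
Ribosome-bound RNA (y axes, CPM scaled within depot) of the 8 bound genes with the smallest p for a depot difference of the daily curve, against zeitgeber time (x axes, h). Points are libraries (BAT circles, WAT squares), lines join the means and grey marks the dark phase. Pcx, Ran, Ddhd2 and Gorasp2 are high at ZT17 or ZT21 in WAT, while Gnai1 is high at ZT1 in BAT.

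The daily curve of accessibility was rarely called different between depots, and its level was not compared. Of 306 pairs of overlapping BAT and WAT regions at strong sites, 2 differed (0.654%), against 0.805% of all pairs. By edgeR 26 of the 306 had an unadjusted p under 0.05, against 2484 of all 21626 pairs. DESeq2 called 3 (0.980%), against 2.02% of all pairs. The site upstream of Pim3 swung more widely in WAT than in BAT (difference curve 1.00 ± 0.18, edgeR adjusted p = 0.00655). The site 1315 bp downstream of the Tns2 start gave 0.26 ± 0.06 in BAT and 0.80 ± 0.12 in WAT (difference curve 0.59 ± 0.12, edgeR adjusted p = 0.0303), a call lost without BAT ZT9 replicate 3 or WAT ZT17 replicate 2, where 1 region remained. Of 295 pairs with a strong site in both, 96 were called in BAT, 45 in WAT and 27 in both (9.15%, against 5.86% of all pairs). In 26 of those 27 the fitted peaks of BAT and WAT lay within 4 h of each other. They included both Bhlhe41 regions, Ciart, Pim3, Gstt2, Por, Junb and Acsl1.

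The authors' deposited table of JTK rhythm tests listed fewer features. At a q-value under 0.05 the authors' deposited table had 50 of 342 strong-site regions in BAT (14.6%, against 9.10% of all) and 27 of 318 in WAT (8.49%, against 8.59%). In the authors' deposited table for RNA it was 24 of 374 bound genes in BAT (6.42%, against 4.33%) and 2 of 365 in WAT (0.548%, against 0.136%). All 50 BAT and all 27 WAT regions under that q-value in the authors' deposited table were also called by edgeR. Of the bound genes under it in the authors' deposited table, 14 of 24 in BAT and 2 of 2 in WAT were called by edgeR.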

How the data were processed

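BMAL1 ChIP-seq peaks, ATAC regions and RNA were used as the authors deposited them, on mm10. Per the submitters' processing notes, Bowtie2 2.4.1, STAR 2.7.5, RSEM 1.3.0, HOMER, DESeq2 and limma were used. The peak score and the tag signal per 10000000 in each ChIP library are the authors' deposited values, per the file headers, and the ChIP input library was not used. RNA values are estimated counts per gene deposited by the authors, rounded here to whole numbers. ATAC values are tag counts per region deposited by the authors. The q-values of the authors' deposited rhythm tables were copied.

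Counts were scaled by TMM, filtered with filterByExpr and fitted with edgeR 4.0.16 in R 4.3.3. DESeq2 1.42.0 was an alternative. All p-values were adjusted over all features. The fits were tested on simulated data, where fewer of the changes put in were found in WAT RNA than in BAT RNA. A site and a region overlapped when at least 75 bp were shared. Of the 415 sites within 10 kb, 409 were matched to a gene ID by the file, 5 by symbol and 1 not. Named are the nearest genes of the 20 highest scores, the bound clock genes, the 8 genes or regions with the smallest p in each comparison, and up to 4 bound genes of each other list. The sites and gene lists were chosen with earlier results of these data known. Replicate numbers were not used as a block in the main fits, and the counts with that block are given below. A single per-sample column (1 in all) of the deposited rhythm tables matched no label and was not used. The results of 1 bound gene are not reported here.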

Additional observations from a re-analysis of the deposited data

Results flagged for a closer look

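The daily RNA curves of 46 of 359 bound genes differed between BAT and WAT adipocytes by the depot interaction (edgeR, adjusted over all genes). That is 12.8%, against 13.1% of all genes, and the count ran between 13 and 102 when 1 library was left out. The 8 with the smallest p are given here by the peak-to-trough size of the difference curve, BAT minus WAT, on the log2 scale. It was 3.25 ± 0.68 for Pip5k1c, 2.22 ± 0.49 for D10Wsu102e, 2.00 ± 0.42 for Rras and 1.69 ± 0.31 for Ran. It was 1.67 ± 0.33 for Gnai1, 1.65 ± 0.36 for Ddhd2, 1.62 ± 0.32 for Pcx and 1.19 ± 0.25 for Gorasp2. Leaving out any 1 of the 35 RNA libraries kept each of these 8 calls. Gnai1 lost its call under total counts scaling, and Gorasp2 under that scaling and without the filter on low counts, at up to adjusted p = 0.0717 for Gnai1 and 0.136 for Gorasp2 over all settings.

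The daily curve of accessibility differed between depots at 2 of 306 pairs of regions at strong sites (0.654%, against 0.805% of all pairs). The difference curve was 1.00 ± 0.18 at the site upstream of Pim3 and 0.59 ± 0.12 at the Tns2 site. The Tns2 call was lost without BAT ZT9 replicate 3, without WAT ZT17 replicate 2 and with time as a factor, at edgeR adjusted p up to 0.0803.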

How the results depend on the processing

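No called result of a named gene or region reversed in the alternatives that fit a peak hour. A shift of the fitted peak by 6 h was the limit for a reversal. The fits with time as a factor give no peak hour and could not show one. Calls of named genes ended, as given above, and the counts below moved. In BAT RNA the 58 rhythmic bound genes became 95 with DESeq2 and 96 with total counts scaling. Their shares were 25.8% and 26.1%, against 19.8% and 18.6% of all genes. The 58 became 36 with the 250 highest scores (19.5%, against 9.17%) and 32 to 123 when 1 library was left out. In WAT RNA the 39 became 72 with DESeq2 (19.6%, against 16.3% of all genes) and 60 with no filter on low counts (15.3%, against 11.5%). They became 59 with time as a factor (16.1%, against 12.5%) and 24 with total counts scaling (6.54%, against 6.16%). They became 87 without the libraries rich in ribosomal RNA (23.5%, against 19.7%) and 16 with the 250 highest scores (8.70%, against 9.89%). When 1 library was left out they numbered 15 to 83. The 46 RNA differences between depots became 84 with DESeq2 (23.4%, against 24.1% of all genes) and 30 with time as a factor (8.36%, against 7.79%). They became 23 with total counts scaling (6.41%, against 6.88%) and 121 without the libraries rich in ribosomal RNA (33.5%, against 31.9%). With the 250 highest scores they were 16 (8.84%, against 13.1%), and 13 to 102 when 1 library was left out. The 108 BAT regions became 57 with an overlap of at least 140 bp and 60 with the 250 highest scores (73 to 107 when 1 library was left out). The 50 WAT regions became 18 and 33 (41 to 51). With the 140 bp overlap the shares were 32.6% in BAT and 12.4% in WAT, and with the 250 highest scores 34.5% and 20.6%. Those of all regions were 18.9% in BAT and 15.8% in WAT. The 2 region differences became 1 with time as a factor or the 140 bp overlap, and 1 to 3 when 1 library was left out. With time as a factor the share was 0.327%, against 1.63% of all pairs. Sites within 1 kb numbered 171 among the 250 highest scores. Sites covered in BAT numbered 174 among the 250 highest and 175 with the 140 bp overlap, and in WAT 160 and 145. The smaller lists start from fewer sites, and the cause of the other changes was not tested.

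With the replicate number as a block the counts were 47 in BAT RNA, 43 in WAT RNA and 41 for the RNA difference. They were 102 in BAT ATAC, 47 in WAT ATAC and 2 for the ATAC difference. The shares were 12.8%, 11.7%, 11.4%, 29.8%, 14.8% and 0.654% in that order. Those of all features were 6.55%, 10.6%, 12.2%, 17.4%, 15.8% and 0.851%. With that block edgeR gave adjusted p = 0.0603 for Hlf, 0.0702 for Tsc22d3 and 0.0541 for Klf9 in BAT RNA. Correlations of the deviations of same-numbered libraries ran between -0.57 and 0.43 in BAT RNA. Their median was 0.068, against -0.033 for other pairs of libraries. In WAT RNA they ran between -0.47 and 0.44 (median 0.033, against -0.022). In BAT ATAC they ran between -0.37 and 0.52 (median 0.0024, against -0.0055). In WAT ATAC they ran between -0.44 and 0.43 (median 0.043, against -0.025). Whether replicate numbers pair the libraries was not tested. Depth differed: the deepest RNA library had 46274438 counts in BAT and 6481154 in WAT. Calls of named genes were gained for Coq10b, Cipc, Ldha, Ddhd2, Rras, Pip5k1c, Dgat2, Foxo3 and Acsl1 in BAT with DESeq2, for Hlf, Lsm3, Bhlhe41, Tspan4, Rras, Foxo3 and Klf9 in WAT with DESeq2, for Rras in WAT with median of ratios scaling, for Rras, Pip5k1c and Acsl1 in BAT with no filter on low counts, for Per2, Hlf, Per3, Lsm3 and Rras in WAT with no filter on low counts, for Lsm3 in WAT with the replicate number as a block, for Bhlhe40 in BAT with time as a factor, for Per3 and Dgat2 in WAT with time as a factor, for Lsm3, Cipc, Ldha, Ddhd2, Rpia, Rras, Pip5k1c, D10Wsu102e and Acsl1 in BAT with total counts scaling, for Lsm3, Bhlhe41, Rras and Mgll in WAT without the libraries rich in ribosomal RNA.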
